A study of Homo sapiens with 13 samples.

Results

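H1975 cells held for 24 h in medium without growth factor were set against the same cells at the start of that period. H1975 is an established human lung adenocarcinoma line that carries a mutated epidermal growth factor receptor (EGFR). The 24 h group had 2 arrays (replicates 1 and 3) and the 0 h group 3 arrays (replicates 1, 2 and 3). The differences rest on these 5 of the 13 arrays of unstimulated cells, all those labelled with these times. The 3 arrays at 48 h added to the estimate of spread behind the p-values. Both groups were seeded, grown for 3 days, washed and left overnight in medium without fetal calf serum, so the 0 h cells were already deprived of serum, and the 24 h cells then stayed in starvation medium, with no EGF added. The other arrays were 1 each at 0.5, 1, 2, 4 and 6 h and 3 at 48 h. Whether replicates came from separate cultures is not stated, and p-values here reflect array-to-array spread alone, which may be technical. No array held cells kept in serum for the same time, so starvation, time in culture and cell density cannot be told apart.

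RNA was hybridised to GeneChip Human Gene 2.0 ST arrays, and each value is a SCAN score, which sets the probes of a gene against a model of background fitted within that array. A score near 0 is background. Scores are not log2 values, so differences are given in score units and no fold change is given. Of 15638 features with a gene symbol, the 12976 with a score of at least 0 on any array were tested. Replicates at 24 h correlated at 0.9955 over these features. At 0 h, replicates 2 and 3 correlated at 0.9957, whereas replicate 1 correlated at 0.9811 and 0.9823 with them and stood apart. Its scores are therefore listed first among the 0 h values, and each main count is repeated without it. The median of all tested scores was 0.690 and 0.676 at 24 h, against 0.651, 0.620 and 0.638 at 0 h.

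Normal cells divide when growth factor signals carry them past a checkpoint in G1, after which E2F factors switch on the genes of DNA synthesis. The genes of mitosis follow later in the cycle, under factors that bind CHR and CCAAT elements. Withdrawal of serum removes growth factors and lipids, and mammalian cells respond to shortage of nutrients through FOXO, SREBP and ATF4 factors. EGF receptor signalling through ERK induces immediate early factors such as EGR1 and their feedback inhibitors such as DUSP6. In the lung, alveolar type II cells make surfactant, and their genes and those of secretory airway cells are often retained in lung adenocarcinoma.

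At 24 h, 691 features (5.33% of those tested) were higher and 307 (2.37%) were lower than at 0 h in limma's moderated test (Benjamini-Hochberg adjusted p under 0.05). That test took its spread from all times with replicates. The 5 arrays of 24 h and 0 h alone gave 140 higher and 81 lower. Genes of DNA replication, DNA repair and mitosis led the falls. PAEP, NAPSA and other secretory and lung epithelial genes, interferon-stimulated genes, immediate early and ERK feedback genes and targets of ATF4 were among the rises. Changes were small on the score scale: 14 features were at least 0.5 higher, 12 of them called, and 4 were at least 0.5 lower, all 4 called. Without replicate 1 of 0 h, 1667 features (12.8%) were higher and 612 (4.72%) lower, and all 691 and 307 calls were among them in the same direction. The balance of rises and falls depended on the scaling between arrays. After quantile normalisation 434 (3.34%) were higher and 433 (3.34%) lower, and with each array's median subtracted 324 (2.5%) were higher and 612 (4.72%) lower. Under 4 settings together (13 arrays as deposited, without replicate 1 of 0 h, quantile normalised, medians subtracted), 322 features were called higher and 288 lower.

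**Figure D1:**
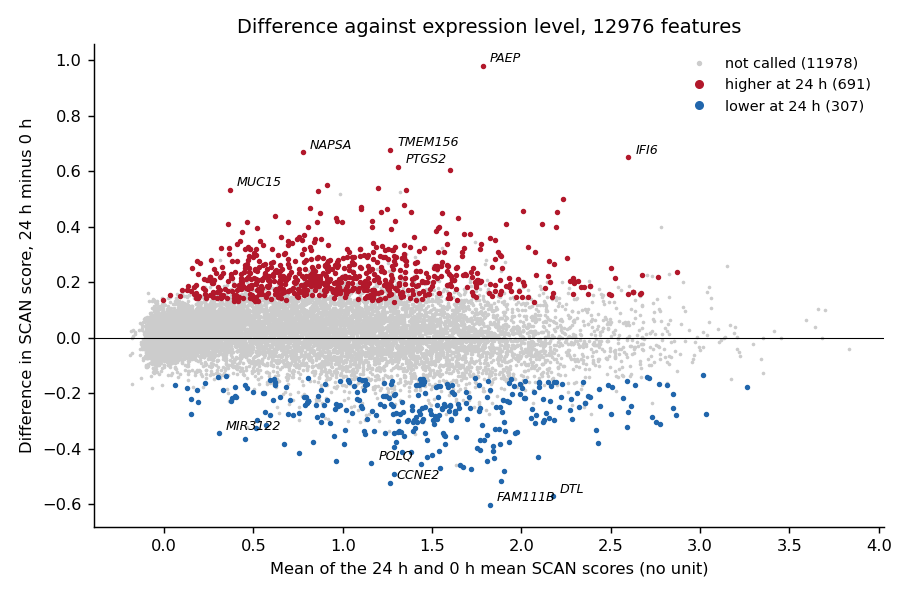
Difference in SCAN score between 24 h and 0 h (24 h minus 0 h, vertical axis) against the mean of the 2 group means (horizontal axis, SCAN score, no unit) for 12976 features, with called features in red (691 higher at 24 h) and blue (307 lower). PAEP lies 0.98 above 0, the highest point, and FAM111B lies 0.60 below it, the lowest.

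The genes that assemble and run the replication fork fell together. Of 23 tested genes of DNA replication, 19 fell, 0 rose and 4 did not pass (22 were lower at an unadjusted limma p under 0.05, and 0 were higher). Their median difference was -0.34, beside 0.016 over all tested features. Without replicate 1 of 0 h, 21 of the 23 were lower, and after quantile normalisation 20. With replicate 1 or replicate 3 of 24 h left out, 10 and 9 were. MCM6, a subunit of the helicase that unwinds DNA, scored 1.67 and 1.59 at 24 h, against 2.30, 2.07 and 2.06 at 0 h, a difference of -0.51 ± 0.067 (SE, adjusted p = 0.0022). CDC6, which loads that helicase at origins, scored 1.68 and 1.65 at 24 h, against 2.06, 2.22 and 2.15 at 0 h (difference -0.48 ± 0.052, adjusted p = 0.00097). PCNA, the sliding clamp of the DNA polymerases, scored 1.70 and 1.56 at 24 h and 2.06, 2.06 and 2.07 at 0 h (difference -0.43 ± 0.046, adjusted p = 0.00092). In all 3 genes both 24 h arrays lay below every 0 h array, as they did in 11.9% of all tested features. The helicase subunit MCM3 (-0.40), the primase subunit PRIM1 (-0.38) and the polymerase alpha catalytic subunit POLA1 (-0.46) fell as well. MCM10, which helps to activate the helicase, fell by 0.44, and TICRR, which helps to start forks, fell by 0.47.

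The genes that did not pass were TIPIN, FEN1, CDT1 and DBF4, named here because the count is small. CDT1, the partner of CDC6 in origin licensing, scored 0.92 and 0.87 at 24 h and 0.88, 1.08 and 1.14 at 0 h, so the low replicate 1 of 0 h overlapped the 24 h arrays. DBF4, which activates the kinase that fires origins, scored 1.58 and 1.45 at 24 h and 1.68, 1.60 and 1.64 at 0 h.

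Promoter sequences of 3 of these falling genes are shown because many genes of the list share an element there. In all, 10 motifs were searched, and the motifs and genes shown here and below were chosen after the matches were seen. The E2F element was searched as TTTCCCGC, TTTGGCGC and TTTCGCGC on both strands in the 300 bases from 250 before to 50 after the RefSeq start (GRCh38.p14). It was present in 12 of 19 replication genes with a promoter sequence (63.2%), in 18.1% of the 238 promoters of genes called lower, in 2.6% of the 503 of genes called higher, in 4.2% of the 9277 of all tested genes and in 2.8% of all 27305 promoters. A match is a string of letters and not a measured binding site, and many genes of this list are textbook E2F targets. MCM3 lies at chr6:52284693-52284992 (minus strand), PCNA at chr20:5126573-5126872 (minus strand) and CDC6 at chr17:40287629-40287928 (plus strand), and capitals mark the E2F letters.
MCM3: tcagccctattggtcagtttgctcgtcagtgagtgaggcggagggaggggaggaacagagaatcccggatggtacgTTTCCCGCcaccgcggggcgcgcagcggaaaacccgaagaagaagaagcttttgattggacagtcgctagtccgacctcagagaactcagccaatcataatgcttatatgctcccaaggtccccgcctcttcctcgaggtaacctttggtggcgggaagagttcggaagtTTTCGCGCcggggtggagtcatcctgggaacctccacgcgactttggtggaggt
PCNA: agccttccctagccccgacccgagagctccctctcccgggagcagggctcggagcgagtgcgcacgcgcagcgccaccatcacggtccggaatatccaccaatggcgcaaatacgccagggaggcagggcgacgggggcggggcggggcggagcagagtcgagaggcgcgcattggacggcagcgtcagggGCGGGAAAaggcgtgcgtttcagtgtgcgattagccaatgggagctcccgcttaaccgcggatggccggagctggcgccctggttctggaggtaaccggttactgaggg
CDC6: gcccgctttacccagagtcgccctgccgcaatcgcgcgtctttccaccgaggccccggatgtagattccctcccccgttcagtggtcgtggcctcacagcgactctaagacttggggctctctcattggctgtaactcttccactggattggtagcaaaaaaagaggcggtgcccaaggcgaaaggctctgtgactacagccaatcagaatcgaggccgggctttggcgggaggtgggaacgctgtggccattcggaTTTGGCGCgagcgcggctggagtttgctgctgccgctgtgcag

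Enzymes that supply deoxynucleotides fell in part. Of 14 nucleotide synthesis genes 4 fell, 0 rose and 10 did not pass (6 were lower and 1 higher at an unadjusted limma p under 0.05), with a median difference of -0.15. Leaving out replicate 1 of 0 h gave 8 lower, and leaving out either 24 h array gave 2. TYMS, which makes thymidylate, scored 1.48 and 1.40 at 24 h, against 1.96, 1.88 and 1.86 at 0 h (difference -0.46 ± 0.046, adjusted p = 0.00068). The ribonucleotide reductase subunits RRM2 (-0.35) and RRM1 (-0.26) and the pyrimidine enzyme UMPS (-0.16) were the other calls.

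Regulators of G1 and S phase fell in part. Of 25 cell cycle regulators 9 fell, 1 rose and 15 did not pass (17 were lower and 2 higher at an unadjusted limma p under 0.05), with a median difference of -0.16. Of the 25, 14 were lower without replicate 1 of 0 h, and 5 and 2 without replicate 1 and replicate 3 of 24 h. CCNE2, a cyclin of S phase entry, scored 1.06 and 0.95 at 24 h, against 1.55, 1.52 and 1.49 at 0 h (difference -0.52 ± 0.042, adjusted p = 0.00028). E2F8, a repressor of the E2F family, fell by 0.42, the phosphatase gene CDC25A by 0.27 and the retinoblastoma gene RB1 by 0.30. The rise was that of RBL2, a pocket protein of resting cells, at 1.80 and 1.77 at 24 h, against 1.65, 1.56 and 1.47 at 0 h (difference 0.23 ± 0.050, adjusted p = 0.024). That call was lost with each array's median subtracted, where 0 members of the list were higher. DTL, which marks replication proteins for destruction, scored 1.93 and 1.85 at 24 h and 2.40, 2.51 and 2.48 at 0 h (difference -0.57 ± 0.047). FAM111B, a nuclear protease gene, had the largest fall of all called features, at 1.54 and 1.5 at 24 h and 2.27, 2.01 and 2.09 at 0 h (difference -0.60 ± 0.068).

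**Figure D2:**
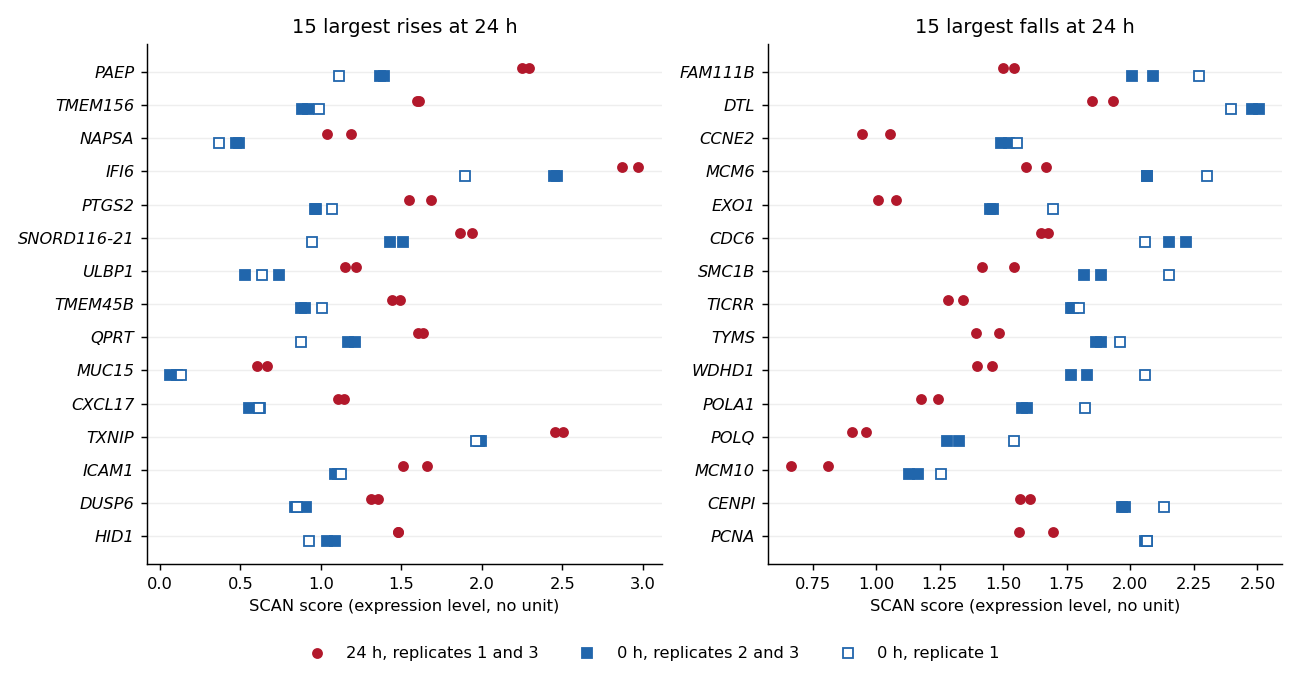
SCAN score (horizontal axis, no unit) of the 15 largest called rises (left) and the 15 largest called falls (right) on each array, with 24 h arrays as red circles, 0 h arrays as blue squares and replicate 1 of 0 h as an open square. No 24 h array overlaps a 0 h array in any of the 30 genes, as the choice of genes required, and replicate 1 of 0 h lies apart from the other 0 h arrays in IFI6 (1.90, against 2.45 and 2.47).

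DNA repair genes fell too. Of 21 tested, 15 fell, 0 rose and 6 did not pass (18 were lower and 0 higher at an unadjusted limma p under 0.05), with a median difference of -0.26. EXO1, an exonuclease of mismatch and break repair, scored 1.08 and 1.01 at 24 h, against 1.70, 1.45 and 1.46 at 0 h (difference -0.49 ± 0.067, adjusted p = 0.0026). The mismatch repair gene MSH6 fell by 0.33 and the uracil glycosylase gene UNG by 0.30. POLQ, the polymerase of end joining at microhomologies, scored 0.96 and 0.90 at 24 h and 1.54, 1.28 and 1.33 at 0 h (difference -0.45 ± 0.068). With replicate 3 of 24 h left out, 1 of the 21 repair genes was still called, and with replicate 1 of 24 h left out, 7.

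Mitotic genes fell less evenly. Of 40 tested, 22 fell, 0 rose and 18 did not pass (31 were lower and 0 higher at an unadjusted limma p under 0.05), and the median difference was -0.21. The count was 31 without replicate 1 of 0 h, and 8 and 5 without replicate 1 and replicate 3 of 24 h. CCNA2, a cyclin of S and G2 phase, scored 2.27 and 2.21 at 24 h, against 2.66, 2.60 and 2.59 at 0 h (difference -0.38 ± 0.039, adjusted p = 0.00078). HMMR, which organises the spindle, fell by 0.37, the kinetochore gene NUF2 by 0.29 and the checkpoint kinase gene TTK by 0.30. Several genes that peak in mitosis did not pass, and those that follow were chosen after their values were seen. PLK1, a mitotic kinase, scored 2.34 and 2.28 at 24 h and 2.25, 2.50 and 2.60 at 0 h (adjusted p = 0.4, and 0.0025 when replicate 1 of 0 h was left out). UBE2C, the ubiquitin-conjugating enzyme of mitotic exit, scored 1.66 and 1.66 at 24 h and 1.58, 1.71 and 1.73 at 0 h (difference -0.01 ± 0.049). The mitotic kinase gene AURKA scored 1.09 and 1.12 at 24 h and 1.18, 1.10 and 1.21 at 0 h (difference -0.05 ± 0.041).

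These genes were lower at 48 h than at 24 h. PLK1 averaged 1.64 ± 0.06 at 48 h (SD, n = 3), 0.67 below its 24 h mean (adjusted p = 0.002), and AURKA averaged 0.72 ± 0.02, 0.38 below it (adjusted p = 0.001). CCNB1, the cyclin of mitotic entry, scored 1.72 and 1.64 at 24 h and 1.75, 1.88 and 1.82 at 0 h (adjusted p = 0.21), and averaged 1.17 ± 0.09 at 48 h. The median score of the 40 mitotic genes was 1.62 and 1.58 at 24 h, against 1.72, 1.73 and 1.73 at 0 h, and 0.97, 1.05 and 1.03 at 48 h. For the 23 replication genes it was 1.27 and 1.30 at 24 h, against 1.52, 1.51 and 1.58 at 0 h, and 0.95, 1.03 and 0.98 at 48 h. The 48 h arrays are the only source of that last step, and both comparisons with 0 h share the 0 h arrays. In bulk RNA, fewer cycling cells and less RNA per cell cannot be told apart.

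**Figure D3:**
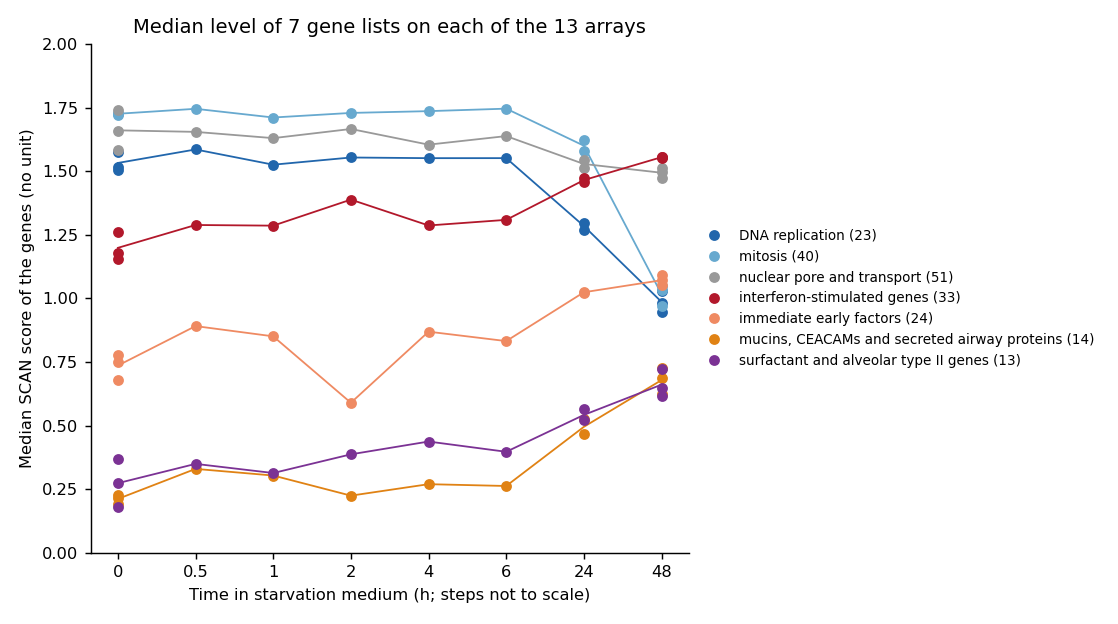
Median SCAN score (vertical axis, no unit) of 7 gene lists on each of the 13 arrays (points) by labelled time (horizontal axis, h, steps not to scale), with lines through the mean at each time and the number of genes in brackets. The axis counts time in starvation medium from 0 h, when cells had already spent a night without serum. The DNA replication median lies between 1.51 and 1.59 on every array up to 6 h and at 1.27 and 1.30 at 24 h, while the mitosis median reaches its low level, 0.97 to 1.05, at 48 h.

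Promoters of 2 falling mitotic genes are shown for the pair of elements common to this list. TTTGAA, the core of the CHR element, was found on either strand in 27 of 35 mitotic gene promoters (77.1%), 24.4% of promoters of genes called lower, 6.4% of those called higher, 10.9% of those of all tested genes and 15.4% of all promoters. CCAAT was found in 28 of the 35 (80.0%), 49.2% of genes called lower, 38.6% of genes called higher, 36.4% of all tested genes and 35.7% of all promoters. HMMR lies at chr5:163460382-163460681 (plus strand) and TOP2A, the topoisomerase that untangles chromosomes (difference -0.31), at chr17:40417847-40418146 (minus strand). Capitals mark both elements on either strand, so CCAAT also appears as ATTGG and TTTGAA as TTCAAA.
HMMR: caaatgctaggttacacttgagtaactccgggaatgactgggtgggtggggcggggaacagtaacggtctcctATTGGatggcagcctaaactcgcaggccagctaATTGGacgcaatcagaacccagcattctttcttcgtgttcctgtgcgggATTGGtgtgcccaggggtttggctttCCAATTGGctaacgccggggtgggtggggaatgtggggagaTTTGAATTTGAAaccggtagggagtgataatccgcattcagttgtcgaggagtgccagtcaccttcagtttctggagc
TOP2A: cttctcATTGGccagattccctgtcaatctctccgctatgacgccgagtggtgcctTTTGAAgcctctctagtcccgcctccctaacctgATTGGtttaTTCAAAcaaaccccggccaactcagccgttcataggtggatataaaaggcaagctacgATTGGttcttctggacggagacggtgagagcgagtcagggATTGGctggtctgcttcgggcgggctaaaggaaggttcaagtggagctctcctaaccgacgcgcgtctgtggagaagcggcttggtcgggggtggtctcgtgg

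Histone genes of S phase did not follow the replication genes. Of 15 tested, 2 rose, 0 fell and 13 did not pass (3 were higher and 1 lower at an unadjusted limma p under 0.05). H3C10 scored 1.53 and 1.47 at 24 h, against 1.15, 1.03 and 1.06 at 0 h (difference 0.42 ± 0.051, adjusted p = 0.0016), and H4C15 was 0.32 higher. H4C4 scored 1.27 and 1.36 at 24 h and 1.40, 1.62 and 1.5 at 0 h (adjusted p = 0.093). This list turned on 1 array, since 10 of the 15 were lower and 2 higher once replicate 1 of 0 h was left out. Copies of histone genes are near-identical, and their features may share transcripts.

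Genes of the nuclear pore and of nuclear transport also fell, by less. Of 51 tested, 8 fell, 0 rose and 43 did not pass (19 were lower and 0 higher at an unadjusted limma p under 0.05), with a median difference of -0.09. NUP205, a scaffold nucleoporin, scored 2.02 and 1.98 at 24 h, against 2.29, 2.25 and 2.29 at 0 h (difference -0.27 ± 0.036, adjusted p = 0.0024), and the import receptor KPNB1 fell by 0.20. With 1 of the 24 h arrays left out, 2 of these genes were called without replicate 1 and 0 without replicate 3. Among 73 chromatin enzymes 5 rose and 2 fell, beside 5.33% and 2.37% of all features. Leaving out replicate 1 of 0 h gave 13 higher and 6 lower, beside 12.8% and 4.72% of all features. Subtracting medians gave 3 higher and 6 lower, beside 2.5% and 4.72%. EZH2, the methyltransferase of Polycomb repression, scored 1.75 and 1.73 at 24 h, against 2.05, 2.10 and 2.08 at 0 h (difference -0.34 ± 0.038, adjusted p = 0.0011). The deacetylase gene HDAC5 rose by 0.29 and the demethylase genes KDM6B and KDM4B by 0.19 and 0.18.

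The largest rise of any feature was that of PAEP, which encodes the secreted lipocalin glycodelin. PAEP scored 2.25 and 2.29 at 24 h, against 1.11, 1.37 and 1.40 at 0 h, a difference of 0.98 ± 0.075 (adjusted p = 0.00028). In all, both 24 h arrays lay above every 0 h array in 23.4% of tested features. PAEP belongs to a list of mucins, CEACAM adhesion molecules and secreted airway proteins, of which 6 of 14 rose, 0 fell and 8 did not pass (10 were higher and 0 lower at an unadjusted limma p under 0.05), with a median difference of 0.14. MUC15, a membrane mucin, scored 0.60 and 0.66 at 24 h and 0.13, 0.07 and 0.11 at 0 h (difference 0.53 ± 0.042, adjusted p = 0.00028). CXCL17, a chemokine of mucosal surfaces, scored 1.14 and 1.11 at 24 h and 0.62, 0.62 and 0.55 at 0 h (difference 0.53 ± 0.043). CEACAM6 rose by 0.34, at 0.60 and 0.55 at 24 h and 0.25, 0.23 and 0.23 at 0 h. CEACAM5 and S100P were the other calls. MUC1, MUC4, MUC5AC, MUC5B, MUC16 and SCGB1A1 were among the members without a named feature, so the 14 do not stand for all mucins and secreted airway proteins. Leaving out either 24 h array left 4 of the 14 called.

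Some genes of the list of surfactant and alveolar type II genes rose. Of 13 tested, 4 rose, 0 fell and 9 did not pass (9 were higher and 0 lower at an unadjusted limma p under 0.05), with a median difference of 0.13. The count was 6 without replicate 1 of 0 h and 2 without either 24 h array. NAPSA, the protease that processes surfactant protein B and a pathology marker of lung adenocarcinoma, scored 1.04 and 1.19 at 24 h, against 0.37, 0.49 and 0.47 at 0 h (difference 0.67 ± 0.053, adjusted p = 0.00028). SFTPA1, a surfactant protein, scored 0.67 and 0.52 at 24 h and 0.42, 0.18 and 0.15 at 0 h (difference 0.35 ± 0.075, adjusted p = 0.021). HOPX scored 0.56 and 0.56 at 24 h and 0.19, 0.08 and 0.18 at 0 h (difference 0.41 ± 0.046). It encodes a homeodomain protein of alveolar cells that is not specific to type II cells. LPCAT1, which makes surfactant lipid, rose by 0.21. NKX2-1, the lineage factor of these cells, scored 1.51 and 1.54 at 24 h and 1.26, 1.45 and 1.44 at 0 h (adjusted p = 0.19). NAPSA and SFTPA1 were higher still at 48 h, averaging 1.65 ± 0.02 and 1.09 ± 0.03 (SD, n = 3).

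Among 26 keratin, claudin and junction genes 4 rose, 0 fell and 22 did not pass (9 were higher and 0 lower at an unadjusted limma p under 0.05). CLDN1 and CLDN3, proteins of tight junctions, each rose by 0.34, KRT80 by 0.29 and KRT15 by 0.22. Leaving out replicate 1 of 0 h gave 8 of the 26 higher, and leaving out replicate 1 or replicate 3 of 24 h gave 0 and 1. Among basement membrane genes, the laminin chain gene LAMB3 (0.18) and the proteoglycan gene AGRN (0.22) rose, whereas the laminin chain gene LAMA3 fell by 0.25. The transcription factor genes SNAI1 and SNAI2, both repressors of epithelial genes, moved apart, with differences of 0.25 (adjusted p = 0.019) and -0.15 (adjusted p = 0.03). VIM, a mesenchymal filament, scored 1.71 and 1.67 at 24 h and 1.58, 1.71 and 1.67 at 0 h.

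Markers of the labelled cell type were present. EPCAM scored 2.18 and 2.16 at 24 h and 2.15, 2.22 and 2.22 at 0 h, and KRT18 scored 2.86 and 2.87 at 24 h and 2.51, 2.91 and 2.97 at 0 h. The summed score of the 7 epithelial and lung adenocarcinoma markers ranged from 11.8 to 12.0 at 24 h and from 9.95 to 11.3 at 0 h, and 1 of the 7, NAPSA, was called. Other cell types have few markers with a named feature here. LUM, of fibroblasts, CD14, of monocytes, and VWF, of endothelium, scored at most 0.12 on all 5 arrays. The summed score of the 3 endothelial markers (CDH5, VWF and KDR) ranged from 0.785 to 0.906 at 24 h and from 0.565 to 0.720 at 0 h, and that of the 2 leukocyte markers (CD14 and CSF1R) from 1.14 to 1.20 at 24 h and from 0.977 to 1.23 at 0 h. The receptor genes KDR and CSF1R were above background, and KDR rose (0.71 and 0.73 at 24 h, 0.49, 0.28 and 0.38 at 0 h).

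Some immediate early and ERK feedback genes were higher at 24 h, in cells that received no EGF. Of 24 immediate early factors, 8 rose, 0 fell and 16 did not pass (11 were higher and 0 lower at an unadjusted limma p under 0.05), with a median difference of 0.09. EGR1, a zinc finger factor, scored 1.57 and 1.64 at 24 h, against 1.18, 1.07 and 1.20 at 0 h (difference 0.45 ± 0.049, adjusted p = 0.001). JUN, a subunit of AP-1, scored 1.41 and 1.46 at 24 h and 1.17, 1.08 and 1.11 at 0 h (difference 0.32 ± 0.039, adjusted p = 0.0018), and SRF and IER5 rose by 0.24 and 0.25. MYC scored 1.22 and 1.20 at 24 h and 1.03, 1.23 and 1.23 at 0 h (adjusted p = 0.78). Of 12 ERK feedback inhibitors 4 rose, 0 fell and 8 did not pass (7 were higher and 1 lower at an unadjusted limma p under 0.05). DUSP6, the cytoplasmic ERK phosphatase, scored 1.31 and 1.36 at 24 h, against 0.85, 0.84 and 0.91 at 0 h (difference 0.47 ± 0.042, adjusted p = 0.00043). SPRY4, ERRFI1 and DUSP8 rose by 0.32, 0.24 and 0.20. ERRFI1 acts on the EGF receptor itself, and DUSP8 is not specific to ERK. The median score of the 24 immediate early factors was 1.03 and 1.02 at 24 h, against 0.68, 0.75 and 0.78 at 0 h. On the single arrays at 0.5, 1, 2, 4 and 6 h, also without EGF, it was 0.89, 0.85, 0.59, 0.87 and 0.83. At 0.5, 1 and 2 h EGR1 scored 1.49, 1.44 and 0.76 and JUN scored 1.39, 1.38 and 0.90, so the level before 24 h was not steady. Leaving out replicate 1 or replicate 3 of 24 h left 2 of these 24 called each time, and 3 and 2 of the 12 feedback inhibitors, whereas 7 feedback inhibitors were higher without replicate 1 of 0 h.

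In the EGF receptor family and its ligands 2 of 12 rose, 1 fell and 9 did not pass. EGFR scored 2.56 and 2.60 at 24 h and 2.43, 2.49 and 2.49 at 0 h (difference 0.11 ± 0.037, adjusted p = 0.12). The receptor gene ERBB3 rose by 0.19 and the ligand gene HBEGF by 0.18, whereas the ligand gene NRG1 fell by 0.15. The call of HBEGF was lost after quantile normalisation (adjusted p = 0.055). Of 24 other receptor tyrosine kinase genes, 6 rose and 1 fell. ROS1 scored 0.84 and 0.83 at 24 h, against 0.52, 0.35 and 0.33 at 0 h (difference 0.44 ± 0.057, adjusted p = 0.0022), and EPHA1 and DDR1 rose by 0.23 and 0.28. The fall was that of AXL, which is also in the list of YAP and SRF targets, at 1.03 and 1.05 at 24 h and 1.19, 1.23 and 1.21 at 0 h. In that list 3 of 14 rose (AJUBA by 0.33, CCN1 by 0.32 and THBS1 by 0.16).

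Interferon-stimulated genes rose in part. Of 33 tested, 11 rose, 1 fell and 21 did not pass, with a median difference of 0.08. IFI6, an interferon-induced mitochondrial protein, scored 2.87 and 2.97 at 24 h, against 1.90, 2.45 and 2.47 at 0 h (difference 0.65 ± 0.14, adjusted p = 0.019). BST2, which tethers budding virus, scored 1.32 and 1.35 at 24 h and 0.76, 0.87 and 0.97 at 0 h (difference 0.46 ± 0.056, adjusted p = 0.0015). XAF1 (0.40), IFI44L (0.35) and OAS1 (0.31) rose as well, as did IRF9 (0.39) and IRF7 (0.32), factors that drive this response. Other classical members were not called, and these were chosen after their values were seen. ISG15 scored 0.66 and 0.62 at 24 h and 0.63, 0.59 and 0.64 at 0 h, and IFIT1 scored 1.22 and 1.17 at 24 h and 1.23, 1.18 and 1.16 at 0 h. With replicate 1 or replicate 3 of 24 h left out, 6 and 5 of the 33 were called higher. IFIT3, at 1.49 and 1.56 at 24 h and 1.64, 1.68 and 1.76 at 0 h, was the gene that fell (adjusted p = 0.042), a call that quantile normalisation ended (adjusted p = 0.07). Of 5 genes of MHC class I presentation, TAPBP (0.32) and HLA-C (0.26) rose, and B2M scored 1.98 and 2.10 at 24 h and 1.96, 2.02 and 2.03 at 0 h.

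The interferon-stimulated response element is shown in the promoters of 2 of the rising genes. This element was searched as GAAA repeated after a spacer of any 2 bases, and was found on either strand in 17 of 26 promoters of interferon-stimulated genes (65.4%), 3.6% of promoters of genes called higher, 2.1% of those called lower, 2.9% of those of all tested genes and 3.6% of all promoters. IFI44L lies at chr1:78620198-78620497 (plus strand) and BST2 at chr19:17405581-17405880 (minus strand), and capitals mark the matches, which overlap in BST2.
IFI44L: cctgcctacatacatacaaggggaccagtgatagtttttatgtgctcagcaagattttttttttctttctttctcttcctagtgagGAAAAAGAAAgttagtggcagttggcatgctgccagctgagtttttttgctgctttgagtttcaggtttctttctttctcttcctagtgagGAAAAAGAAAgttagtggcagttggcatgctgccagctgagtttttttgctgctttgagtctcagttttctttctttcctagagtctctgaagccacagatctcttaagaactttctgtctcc
BST2: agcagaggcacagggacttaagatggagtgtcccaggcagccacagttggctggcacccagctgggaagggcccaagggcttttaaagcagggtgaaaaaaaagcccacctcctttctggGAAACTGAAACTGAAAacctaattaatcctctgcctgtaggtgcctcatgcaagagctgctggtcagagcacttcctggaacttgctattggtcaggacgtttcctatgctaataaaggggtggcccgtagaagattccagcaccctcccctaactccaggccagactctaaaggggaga

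Among NF-kB factors, chemokines and cytokines 5 of 23 rose, 0 fell and 18 did not pass (8 were higher and 0 lower at an unadjusted limma p under 0.05). ICAM1, an adhesion molecule for leukocytes, scored 1.66 and 1.51 at 24 h, against 1.12, 1.09 and 1.11 at 0 h (difference 0.48 ± 0.047, adjusted p = 0.00066). CX3CL1, a membrane-bound chemokine, rose by 0.46, IL24 by 0.24 and CXCL16 by 0.23. Of the 23, 2 and 3 were called without replicate 1 and replicate 3 of 24 h. PTGS2, the inducible cyclooxygenase of prostaglandin synthesis, scored 1.55 and 1.68 at 24 h and 1.07, 0.96 and 0.97 at 0 h (difference 0.62 ± 0.060, adjusted p = 0.00066). In the 12 genes of the prostaglandin pathway the transporter gene SLCO2A1 rose by 0.38, whereas PTGS1, the constitutive cyclooxygenase, fell by 0.18. ULBP1, a ligand of the NKG2D receptor of natural killer cells, scored 1.22 and 1.15 at 24 h and 0.63, 0.74 and 0.53 at 0 h (difference 0.55 ± 0.067). CFB and C3 rose among 9 complement genes (0.16 and 0.15), both calls being lost after quantile normalisation. CFI and C5 differed by -0.22 and -0.25 and were called lower after quantile normalisation (adjusted p = 0.02 and 0.022), with medians subtracted and without replicate 1 of 0 h, but not with all arrays as deposited (adjusted p = 0.058 and 0.081). TFPI2 and ANXA2 fell among 9 genes of coagulation and plasminogen activation (by 0.28 and 0.18).

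Targets of ATF4 rose. Of 13 targets of ATF4, a factor translated more when amino acids are scarce, 8 rose, 0 fell and 5 did not pass (11 were higher and 0 lower at an unadjusted limma p under 0.05), with a median difference of 0.21. SLC7A11, the cystine transporter, scored 2.46 and 2.39 at 24 h, against 2.10, 1.91 and 1.90 at 0 h (difference 0.45 ± 0.058, adjusted p = 0.002). SESN2, an inhibitor of the kinase mTORC1, scored 1.18 and 1.18 at 24 h and 0.70, 0.80 and 0.78 at 0 h (difference 0.42 ± 0.052, adjusted p = 0.0018), and STC2 and ATF4 itself rose by 0.29 and 0.19. With each array's median subtracted 4 of the 13 passed, and without replicate 1 and replicate 3 of 24 h 3 and 2 did. Of 17 aminoacyl-tRNA synthetase genes 7 rose, 0 fell and 10 did not pass (7 were higher and 2 lower at an unadjusted limma p under 0.05). MARS1, which charges methionine tRNA, scored 2.01 and 2.00 at 24 h, against 1.62, 1.62 and 1.70 at 0 h (difference 0.36 ± 0.040, adjusted p = 0.001). YARS1, SARS1 and AARS1 rose by 0.25, 0.23 and 0.22. With medians subtracted 4 of the 17 were higher and 1 lower, and without replicate 1 and replicate 3 of 24 h 4 and 1 were higher. The ATF4 element was searched as TGATGNAA on both strands and was found in 6 of 14 synthetase promoters (42.9%), 1 of 11 ATF4 target promoters (9.1%), 1.8% of genes called higher, 1.9% of all tested genes and 3.7% of all promoters. The promoters of MARS1 (chr12:57487818-57488117, plus strand) and AARS1 (chr16:70289457-70289756, minus strand) are shown because both hold it in capitals, on the opposite strand.
MARS1: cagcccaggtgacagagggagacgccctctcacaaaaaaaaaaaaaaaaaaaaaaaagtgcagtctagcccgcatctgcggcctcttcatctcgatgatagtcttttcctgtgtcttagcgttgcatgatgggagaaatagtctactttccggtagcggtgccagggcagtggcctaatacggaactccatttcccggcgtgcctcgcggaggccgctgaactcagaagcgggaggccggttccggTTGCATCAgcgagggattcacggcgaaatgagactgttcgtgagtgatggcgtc
AARS1: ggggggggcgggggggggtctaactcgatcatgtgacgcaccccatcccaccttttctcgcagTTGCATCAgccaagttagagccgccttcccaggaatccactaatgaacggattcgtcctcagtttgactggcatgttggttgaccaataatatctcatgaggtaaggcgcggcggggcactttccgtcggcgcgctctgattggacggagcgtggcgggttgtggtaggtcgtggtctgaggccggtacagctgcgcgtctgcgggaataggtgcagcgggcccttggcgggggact

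Genes of nutrient and stress control in other lists rose in smaller numbers. TXNIP, which limits glucose uptake, scored 2.46 and 2.50 at 24 h, against 1.96, 1.98 and 1.99 at 0 h (difference 0.50 ± 0.035, adjusted p = 0.00028), and its relative ARRDC4 rose by 0.37. They belong to a list of 17 FOXO and TXNIP genes in which 5 rose, 0 fell and 12 did not pass (6 were higher and 2 lower at an unadjusted limma p under 0.05). PIK3IP1, an inhibitor of PI3 kinase, rose by 0.28 and FOXO4 by 0.19. After quantile normalisation 3 of the 17 were higher and 1 lower, and without replicate 1 and replicate 3 of 24 h 2 and 1 were higher. DDIT4, an inhibitor of mTORC1, scored 1.24 and 1.17 at 24 h, against 0.73, 0.78 and 0.84 at 0 h (difference 0.42 ± 0.045, adjusted p = 0.00094). It and VEGFA (0.31) and NDRG1 (0.24) were the rises among 14 hypoxia-inducible genes, and CA12 fell by 0.15. ERN1, a sensor of unfolded protein, rose by 0.42 whereas the chaperone gene CANX fell by 0.18. GDF15, a stress cytokine and target of p53, rose by 0.38, the only call among 11 p53 targets. QPRT, an enzyme of NAD synthesis, scored 1.61 and 1.64 at 24 h and 0.88, 1.17 and 1.21 at 0 h (difference 0.53 ± 0.085).

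In lipid synthesis the factor SREBF2 (0.20) and the sterol reductase gene TM7SF2 (0.18) rose among 17 cholesterol genes, and ACSS2 (0.30), which makes acetyl-CoA, and SREBF1 (0.20) rose among 16 fatty acid genes. With replicate 1 of 0 h left out 6 and 5 of these genes were higher, and with each array's median subtracted, 0 and 1. Of 14 BCL2 family genes 4 rose: the pro-apoptotic BMF (0.24), BAK1 (0.27) and BOK (0.22) and the protective BCL2L1 (0.17). After quantile normalisation 2 of these passed, and without either 24 h array 1. Of 12 circadian clock genes 4 rose: NR1D1 (0.28), NPAS2 (0.22), PER1 (0.21) and PER2 (0.17). Among 29 solute carriers 4 rose (12 higher and 1 lower without replicate 1 of 0 h), with the nucleoside transporter gene SLC28A3 at 1.36 and 1.36 at 24 h and 0.99, 0.94 and 0.96 at 0 h.

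**Figure D4:**
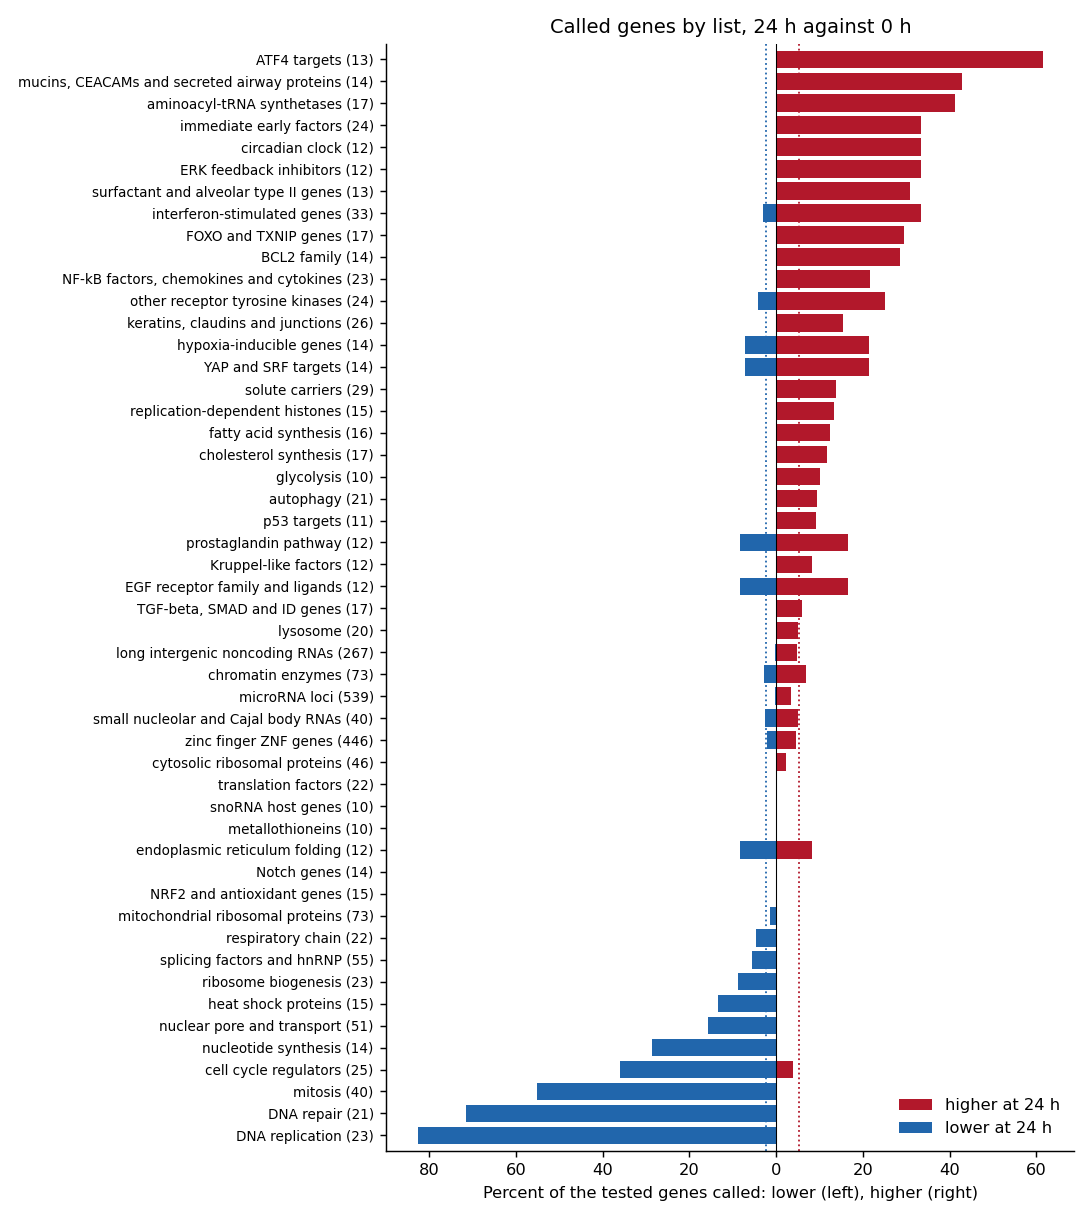
Percent of the tested genes of each list (number in brackets, lists with at least 10) called higher (red, right) or lower (blue, left) at 24 h than at 0 h, with dotted lines at the percent of all tested features called in each direction (5.33 higher and 2.37 lower). DNA replication, with 19 of 23 lower, and ATF4 targets, with 8 of 13 higher, lie at the ends.

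Lists of protein and energy machinery held few calls. Counts with all arrays in this paragraph stand beside 5.33% higher and 2.37% lower among all tested features. Without replicate 1 of 0 h those shares were 12.8% and 4.72%, and with medians subtracted 2.5% and 4.72%. Of 46 cytosolic ribosomal protein genes 1 rose (RPL28), of 73 mitochondrial ribosomal protein genes 1 fell (MRPL45), and of 22 respiratory chain genes 1 fell (CYC1, by 0.21). Of 23 ribosome biogenesis genes 2 fell (NOLC1 by 0.20 and BOP1 by 0.15) and of 55 splicing genes 3 fell (HNRNPL by 0.25, HNRNPAB by 0.17 and PRPF4 by 0.17). The other feature of BOP1 differed by -0.02 and was not called. HSPA4 and HSPA9 fell among 15 heat shock genes, each by 0.16. HSPA1A and HSPA1B, near-identical copies with 5 features each, were not called on their brightest feature but were higher on 4 and 3 of the others. By limma 0 genes were called among 22 translation factors (1 higher and 0 lower at an unadjusted p under 0.05), 15 NRF2 and antioxidant genes (1 and 3), 14 Notch genes (1 and 1), 10 snoRNA host genes (0 and 0) and 10 metallothioneins (0 and 3). The metallothioneins turned on replicate 1 of 0 h. MT1X scored 0.79 and 0.90 at 24 h and 0.90, 1.36 and 1.27 at 0 h, and without that array 5 of the 10 were lower. KLF12 among 12 Kruppel-like factors, SMAD7 among 17 TGF-beta genes, SLC2A3 among 10 glycolysis genes, CD63 among 20 lysosome genes and GABARAPL2 and TFE3 among 21 autophagy genes rose. Several of these lists moved without replicate 1 of 0 h, to 8 mitochondrial ribosomal protein and 8 splicing genes lower and 4 lysosome and 5 autophagy genes higher. Of 446 ZNF genes 20 rose and 9 fell, near the shares of all tested features. Their counts were 85 higher and 11 lower without replicate 1 of 0 h, and subtracting medians gave 6 higher and 20 lower.

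Few noncoding loci were called. Of 539 microRNA loci 18 rose and 1 fell, of 267 LINC loci 13 rose and 1 fell (LINC00664, by 0.39), and of 40 small nucleolar and Cajal body RNAs 2 rose and 1 fell. These shares lie near or below those of all features, and the balance depended on scaling and on 1 array. With medians subtracted 8 microRNA loci were higher and 7 lower, and 3 LINC loci were higher and 2 lower. Leaving out replicate 1 of 0 h gave 44 and 8 microRNA loci and 24 and 3 LINC loci, and leaving out replicate 1 or replicate 3 of 24 h gave 5 and 0 microRNA loci and 0 and 1 LINC loci higher. The features report RNA of the locus, so precursor and mature microRNA cannot be separated. MIR222 scored 1.00 and 1.11 at 24 h, against 0.75, 0.71 and 0.65 at 0 h (difference 0.35 ± 0.048, adjusted p = 0.0025), and its neighbour MIR221 scored 1.90 and 1.92 at 24 h and 1.79, 1.72 and 1.77 at 0 h (difference 0.15 ± 0.040, adjusted p = 0.048). MIR21, a microRNA abundant in carcinomas, scored 2.39 and 2.41 at 24 h and 2.17, 2.08 and 2.09 at 0 h (difference 0.29 ± 0.042). MIR3122 was the fall, at 0.12 and 0.15 at 24 h and 0.52, 0.46 and 0.46 at 0 h (difference -0.34 ± 0.039, adjusted p = 0.0011). MIR221 and MIR21 were added after their values were seen. The mature RNAs are shown, from RefSeq, because MIR221 and MIR222, both called higher, share a seed, the capitals at bases 2 to 8.
hsa-miR-222-3p: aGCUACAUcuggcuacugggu
hsa-miR-221-3p: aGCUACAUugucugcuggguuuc
hsa-miR-21-5p: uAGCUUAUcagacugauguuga
hsa-miR-3122: gUUGGGACaagaggacggucuu

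Calls depended on level and differed in gene length. Among the 4266 features with a mean score under 0.25, 0.633% were called higher and 0.164% lower, and among the 764 with a mean of at least 2, 5.89% were higher and 8.12% lower. The median gene length, from the start to the end of the RefSeq gene, was 17429 bp for features called higher, 37019.5 bp for those called lower and 22573.5 bp for all tested. The part of level and length in the results was not tested.

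Most calls remained when replicate 1 of 0 h and either 24 h array were left out together. With all 0 h arrays kept, most calls were lost when either 24 h array was left out. Without replicate 1 of 24 h, 139 features (1.07%) were higher and 84 (0.647%) lower, and without replicate 3, 85 (0.655%) were higher and 37 (0.285%) lower, with the lone 24 h array assumed to vary like the other groups. The median SD between replicates was 0.0285 at 24 h (n = 2) and 0.0564 at 0 h (n = 3), and 0.0297 at 0 h without replicate 1. The median SE of a difference was 0.0456. Named genes that lost their call after quantile normalisation were, among the rises, KDM4B, CEACAM5, LAMB3, AGRN, SNAI1, HBEGF, CFB, C3, FOXO4, NDRG1, TM7SF2, SREBF1, BOK, BCL2L1, PER2, RPL28, KLF12, SMAD7 and TFE3. Among the falls they were IFIT3, MRPL45, PRPF4, HSPA4 and HSPA9. With medians subtracted ATF4, HLA-C, KRT80, SREBF2, THBS1 and GABARAPL2 lost theirs too.

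**Figure D5:**
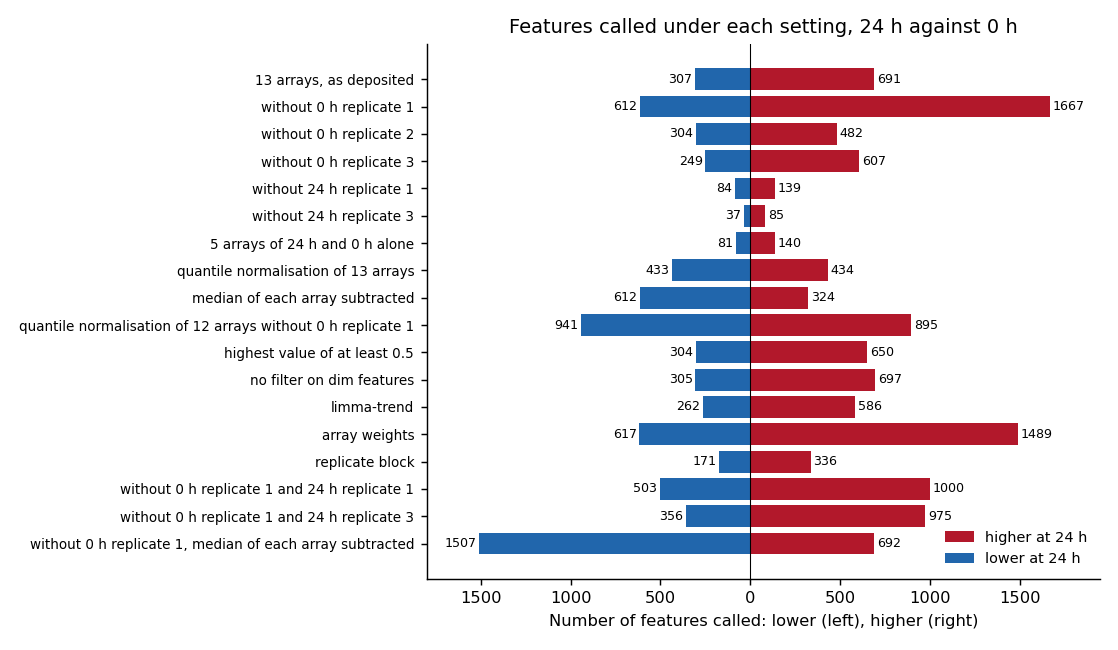
Number of features called higher (red, right) and lower (blue, left) at 24 h than at 0 h under each setting of the analysis. The counts are 691 and 307 with all 13 arrays as deposited, 1667 and 612 without replicate 1 of 0 h, 434 and 433 after quantile normalisation and 85 and 37 without replicate 3 of 24 h.

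The features called at 24 h were read again on the 48 h arrays, side by side. They were called on the 24 h and 0 h arrays, so the gap between those 2 times follows from the choice. The median score of the features called higher was 1.08 and 1.10 at 24 h, against 0.844, 0.851 and 0.875 at 0 h, and 1.10, 1.12 and 1.11 at 48 h. The median of the features called lower was 1.36 and 1.34 at 24 h, against 1.67, 1.56 and 1.60 at 0 h, and 1.06, 1.10 and 1.06 at 48 h. TMEM156, a membrane protein, rose at 24 h (1.60 and 1.61, against 0.99, 0.88 and 0.92 at 0 h) and averaged 1.38 ± 0.04 at 48 h, 0.23 below its 24 h mean (adjusted p = 0.019). PAEP averaged 2.45 ± 0.06 at 48 h, and its difference from 24 h, 0.18, did not pass (adjusted p = 0.32). Both genes were picked for large rises at 24 h, and what that choice adds to their 48 h differences was not tested.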

How the data were processed

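The 13 arrays of H1975 cells carried GeneChip Human Gene 2.0 ST probes. Deposited values are SCAN scores: the authors fitted each array separately, and did not normalise between arrays. The platform annotation named 15426 features of 39937 (all matched by gene ID to RefSeq, GRCh38.p14), and names in a table of the study, of which 490 lines were held, gave 212 more. A single feature with 1 value on all arrays was kept.

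Differences were fitted by lmFit and eBayes of limma 3.58.1 (R 4.3.3), with a level for each time point over 13 arrays and 5 residual degrees of freedom, and tested on both sides with Benjamini-Hochberg adjustment over 12976 features. Single-array times add nothing to the spread, and the 48 h replicates do. Steps were tested on simulated data. In 59 gene lists each gene counted once, by its feature with the highest mean. Named genes are the 15 largest called rises and falls without overlap of arrays, up to 4 members per list with the smallest adjusted p, and the cell type markers. RBL2, TOP2A, CEACAM5, S100P, MYC, IRF7 and IRF9 fall outside that rule and were named after their values were seen. Of 12 named symbols with several features, 6 had only some of them called. Members and lists were chosen with earlier results of these data known, and antisense, pseudogene and regulator entries were removed from some lists after values were seen. In all 14 alternatives were planned and 3 added. The number of arrays limits the precision. Arrays with EGF and at 8 and 12 h were not analysed here, and some genes are not reported here.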

Additional observations from a re-analysis of the deposited data

How the results depend on the processing

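Counts of features higher and lower at 24 h than at 0 h, 691 and 307 with all arrays, moved with several choices. Leaving out 1 array at a time gave 85 to 1667 higher and 37 to 612 lower, the extremes being without replicate 3 of 24 h and without replicate 1 of 0 h. The 5 arrays alone gave 140 and 81, and of the called named features 78 lost their call there and 87 kept it. Array weights gave 1489 and 617. Quantile normalisation gave 434 and 433, and without replicate 1 of 0 h 895 and 941. Subtracting array medians gave 324 and 612. Settings chosen after the data were seen left out replicate 1 of 0 h together with replicate 1 of 24 h (1000 and 503), with replicate 3 of 24 h (975 and 356), or with array medians subtracted (692 and 1507). A score of at least 0.5 (650 and 304), no filter on dim features (697 and 305) and limma-trend (586 and 262) stayed within 1.5 times. The cause of these shifts was not tested.

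Deviations from the group means correlated at 0.0617 for replicate 1 and -0.0298 for replicate 3 of the 2 times. With 2 arrays at 24 h their deviations mirror each other, so whether replicate numbers pair the arrays cannot be told. The replicate block gave 336 higher and 171 lower. Among the 249 named features no difference called with all arrays changed sign in any setting. KRT18, not called with all arrays (0.06), was -0.13 and called lower without replicate 1 of 0 h and with medians subtracted. Sign changes of differences called in neither setting were not counted. With 2 arrays at 24 h and a median standard error of 0.0456, small differences were not detectable.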
